A study of Mus musculus with 2 samples.

Results

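Venous endothelial cells line the small veins that drain the capillary bed of skeletal muscle. They were taken here as 464 single-cell barcodes, 295 in the library labelled KO and 169 in the library labelled WT. These are 464 of 27383 barcodes that passed a filter of at least 500 detected genes, at least 1000 UMIs (unique molecular identifiers, 1 per captured transcript) and at most 10% mitochondrial UMIs. A barcode was a member when it held at least 1 UMI of the endothelial genes Pecam1 and Cdh5 and at least 3 UMIs over Selp, Sele, Ackr1 and Lrg1 with at least 2 of these genes detected. It also had to hold at most 1 UMI over the arterial genes Bmx, Cytl1 and Gja5 and none of Ptprc (leukocytes) or Pdgfra (stromal cells). The members were therefore chosen on measured counts, and levels of these genes and every contrast of members with other barcodes of the same library are descriptions with no test.

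The study holds 1 library of each genotype, KO and WT, from male mice, made from a muscle of the lower leg, the tibialis anterior, and its title concerns autocrine IGF-I in resident mesenchymal progenitors. Each library pooled 10 muscles of 5 mice, digested for 1 h at 37 °C with collagenase and dispase, after which cells that excluded propidium iodide were sorted as viable. The labels name neither the deleted gene, a Cre driver nor the animals' age, leave the abbreviation ND unexplained, give both libraries batch 1, and call the cells FAPs (fibro-adipogenic progenitors). The sort was on viability alone, and 11283 and 4074 of the barcodes past the filter held Pecam1 or Cdh5 UMIs. The design text gives about 15000 retained cells per sample, and the deposited matrices hold 19531 barcodes for KO and 11360 for WT, of which 17651 and 9732 passed the filter. With 1 library per genotype there are no replicates, no test between genotypes was possible, and differences between genotypes and between libraries cannot be told apart.

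Veins and venules are the vessels through which leukocytes leave the blood. Their endothelium keeps P-selectin (Selp) and von Willebrand factor in Weibel-Palade bodies, secretory granules that fuse with the surface on stimulation, and makes E-selectin (Sele) in response to inflammatory cytokines. Ackr1 is an atypical receptor that carries chemokines across the venular wall, and Lrg1 encodes a secreted glycoprotein of inflamed vessels. Venous identity is known to depend on the nuclear receptor Nr2f2, which restrains Notch signalling, whereas Notch ligands and targets mark arteries.

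The members were deep relative to other endothelial barcodes. Their median was 8632 UMIs (1094 to 26532) in the library labelled KO and 4601 UMIs (1045 to 16607) in the library labelled WT, against 4146.5 and 2685 UMIs in the other endothelial barcodes of the same libraries. Summed over members the counts came to 2828712 UMIs in the library labelled KO and 853588 UMIs in the library labelled WT, so that 1 UMI is worth 0.354 CPM (UMIs scaled to a common total) and 1.17 CPM. The libraries shared 61 barcode sequences, none of them venous in both. Scrublet called 10 of the 295 and 5 of the 169 members doublets. Stromal barcodes (at least 2 Pdgfra UMIs and no Pecam1 or Cdh5) had Igf1, the gene for IGF-I, at 403 CPM in the library labelled KO and 397 CPM in the library labelled WT, so Igf1 in these cells did not separate the labels. Whether a 3′ tag of Igf1 can report the deletion is not given in the sources used here, and the libraries are called by their labels throughout.

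Upstream sequences of 4 genes are shown because the results below turn on them: the selectin Sele and the chemokine carrier Ackr1, which divide the members, and the cytokine Il6 and the chemokine Cxcl10, whose UMIs were spread unevenly over the members. Each run is the 250 bases before the gene's start in RefSeq, build GRCm38.p6, written 5′ to 3′ on the gene's strand, with matches to a κB motif, the recognition sequence of NF-κB factors, in capitals. The motif was searched on both strands in a longer form, GGGNN followed by TTTCC, and a shorter form, GGGNN followed by TTCC, in which N is any base.
Sele (chr1:164047984-164048233, plus strand): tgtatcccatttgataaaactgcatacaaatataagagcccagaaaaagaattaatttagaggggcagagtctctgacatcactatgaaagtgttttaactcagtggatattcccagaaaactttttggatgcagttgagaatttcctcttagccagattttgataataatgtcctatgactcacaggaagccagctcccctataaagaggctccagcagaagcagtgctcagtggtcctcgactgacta
Ackr1 (chr1:173333504-173333753, minus strand): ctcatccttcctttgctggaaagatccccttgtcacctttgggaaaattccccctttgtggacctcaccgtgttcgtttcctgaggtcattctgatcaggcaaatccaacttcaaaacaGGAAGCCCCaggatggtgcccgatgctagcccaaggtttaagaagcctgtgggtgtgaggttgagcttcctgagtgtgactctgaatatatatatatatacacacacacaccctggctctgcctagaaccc
Il6 (chr5:30012864-30013113, plus strand): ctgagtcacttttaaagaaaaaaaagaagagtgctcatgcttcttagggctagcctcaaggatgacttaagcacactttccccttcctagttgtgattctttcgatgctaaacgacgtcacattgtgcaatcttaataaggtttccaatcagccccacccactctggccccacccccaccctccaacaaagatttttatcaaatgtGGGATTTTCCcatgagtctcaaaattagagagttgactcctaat
Cxcl10 (chr5:92348890-92349139, minus strand): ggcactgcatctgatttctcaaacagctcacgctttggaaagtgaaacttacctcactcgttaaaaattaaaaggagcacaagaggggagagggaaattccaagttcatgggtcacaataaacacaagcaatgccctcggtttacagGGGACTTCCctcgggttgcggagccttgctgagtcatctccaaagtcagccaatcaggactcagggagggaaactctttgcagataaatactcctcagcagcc
Il6 held the longer form and Cxcl10 the shorter form on the gene's strand, Ackr1 held the shorter form on the opposite strand, and neither form lay in this window of Sele. Of 32851 upstream windows of the same length, 1.41% held the longer form and 4.98% the shorter form, counting both strands. Of other genes searched, Selp, Lrg1 and Icam1 held neither form, while Cxcl1, Cxcl2, Cxcl9, Nfkbia and a window of Tnfaip3 held a match. A match is a description of letters and not a binding site. These forms do not cover every κB sequence, so a window without a match, such as that of Sele, may still hold such a site.

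P-selectin was the most abundant of the genes used in the choice. Selp stood at 4675 CPM in members of the library labelled KO and 5012 CPM in those of the library labelled WT, and was detected in 96.9% and 94.1% of them. Lrg1 stood at 1242 and 849 CPM in the same order of libraries, Sele at 1189 and 1259 CPM, and Ackr1 at 385 and 361 CPM. Sele was detected in 55.3% of members of the library labelled KO and 52.1% of those of the library labelled WT, and Ackr1 in 49.5% and 50.3%. All 4 genes were found together in 28.8% (95% exact binomial interval 23.7 to 34.3) of members of the library labelled KO and in 18.9% (13.3 to 25.7) of members of the library labelled WT, whose barcodes are shallower. The sum of the 4 genes had a median of 45 UMIs (3 to 695) in the library labelled KO and 24 UMIs (3 to 325) in the library labelled WT. Intervals here and below cover counting error only.

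Members with exactly 3 marker UMIs numbered 15 in the library labelled KO and 4 in the library labelled WT, while 57 and 6 barcodes just outside held 1 UMI of each of 2 markers. The 15 members just inside in the library labelled KO had Plvap, a gene of fenestral and stomatal diaphragms, at 973 CPM and the capillary gene Lpl at 811 CPM, against 215 and 1084 CPM in the 57 barcodes just outside. In the library labelled WT the 4 members just inside had Plvap at 2328 CPM and no Lpl UMI, against 1162 CPM and likewise no Lpl UMI in the 6 barcodes just outside. A further 105 barcodes in the library labelled KO and 47 in the library labelled WT held 3 or more UMIs of a single marker and stayed outside, with Plvap at 1397 and 1770 CPM. Members as a whole had Plvap at 1714 and 1443 CPM.

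Markers of other cell types were checked as lists. Endothelial markers summed to 9170 CPM in members of the library labelled KO and 9029 CPM in those of the library labelled WT. Immune markers summed to 40.3 and 29.3 CPM, lymphatic markers to 50.2 and 59.7 CPM, platelet markers to 13.8 and 19.9 CPM, and stromal markers to 198 and 124 CPM. Of the 12 immune markers 2 were at 0 in members of the library labelled KO and 7 in those of the library labelled WT, among them Adgre1 and Cd3e in both. Mural markers summed to 1058 and 1034 CPM, of which Tagln, an actin-binding protein of contractile cells, made up 694 and 802 CPM. Tagln stood at 223 and 140 CPM in other endothelial barcodes, whereas the pericyte gene Rgs5 was at 206 CPM in members and 1470 CPM in other endothelial barcodes of the library labelled KO, and at 85.5 and 1064 CPM in the library labelled WT. The marker part of the rule was met by 1 of 607 stromal barcodes in the library labelled KO and 0 of 1016 in the library labelled WT, which allows a share of up to 0.295%.

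Against the other endothelial barcodes (10988 in the library labelled KO, 3905 in the library labelled WT), 279 of 6877 genes (4.06%) were at least 2-fold higher in members in both libraries and 602 (8.75%) at least 2-fold lower. Counts over gene lists below are to be read beside these shares. A gene was compared where it reached 20 CPM in 1 of the sets and 50 UMIs over both, in each library. Ratios are log2 of CPM plus 1. The other endothelial barcodes include some with stromal or leukocyte transcripts. For that reason a second set of 7491 and 2780 barcodes, without Ptprc or Pdgfra UMIs and with at least 3 Pecam1 and Cdh5 UMIs, stands beside the lower genes. It is called barcodes held to the same exclusions, which means those of Ptprc and Pdgfra only. The limit on arterial genes was not applied to it. Arterial markers outside the rule summed to 3410 and 4754 CPM in this set, against 2165 and 2118 CPM in members. Against this second set 291 of 6570 genes (4.43%) were 2-fold higher and 369 (5.62%) 2-fold lower.

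Transcripts known from veins were high in the members of both libraries. Of 19 measured genes of a venous list without the rule's genes, 17 were at least 2-fold higher in both libraries and none was 2-fold lower in both, with median log2 ratios of 2.76 in the library labelled KO and 2.64 in the library labelled WT against -0.16 and -0.17 over all genes compared. Nr2f2, the nuclear receptor of venous identity, stood at 458 CPM in members against 133 CPM in other endothelial barcodes of the library labelled KO, and at 307 against 117 CPM in the library labelled WT. Nrp2, a co-receptor for vascular endothelial growth factor C and semaphorins, stood at 576 against 193 CPM and at 615 against 204 CPM. The apelin receptor Aplnr stood at 30 against 4.68 CPM and at 67.9 against 13.9 CPM, and Ch25h, which makes 25-hydroxycholesterol, at 85.2 against 9.52 CPM and at 138 against 11.9 CPM. Mctp1, a calcium-binding membrane protein, was at 586 against 34.5 CPM in the library labelled KO and at 818 against 53.2 CPM in the library labelled WT, log2 ratios of 4.05 (3.99 to 4.18) and 3.92 (3.79 to 4.10).

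Of all genes compared 4.06% were higher and 8.75% lower. Among 25 measured endothelial transcription factor genes, 3 were 2-fold higher in both libraries and 1 was 2-fold lower. Besides Nr2f2 these were the forkhead gene Foxc1, at 165 against 45.2 CPM in the library labelled KO and 160 against 48.8 CPM in the library labelled WT, and the homeobox gene Meox1, at 70 against 18.9 CPM and 90.2 against 22.9 CPM. Foxc1 was also present in arterial barcodes, at 76.3 and 107 CPM, whereas Meox1 was at 3.93 and 3.2 CPM there. Tcf15, a transcription factor of fatty acid uptake in capillaries of muscle and heart, was the lower one, at 51.6 against 225 CPM and 30.5 against 158 CPM. Lhx6, a LIM homeobox gene outside this list, stood at 63.6 against 5.13 CPM and 99.6 against 7.08 CPM.

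**Figure D1:**
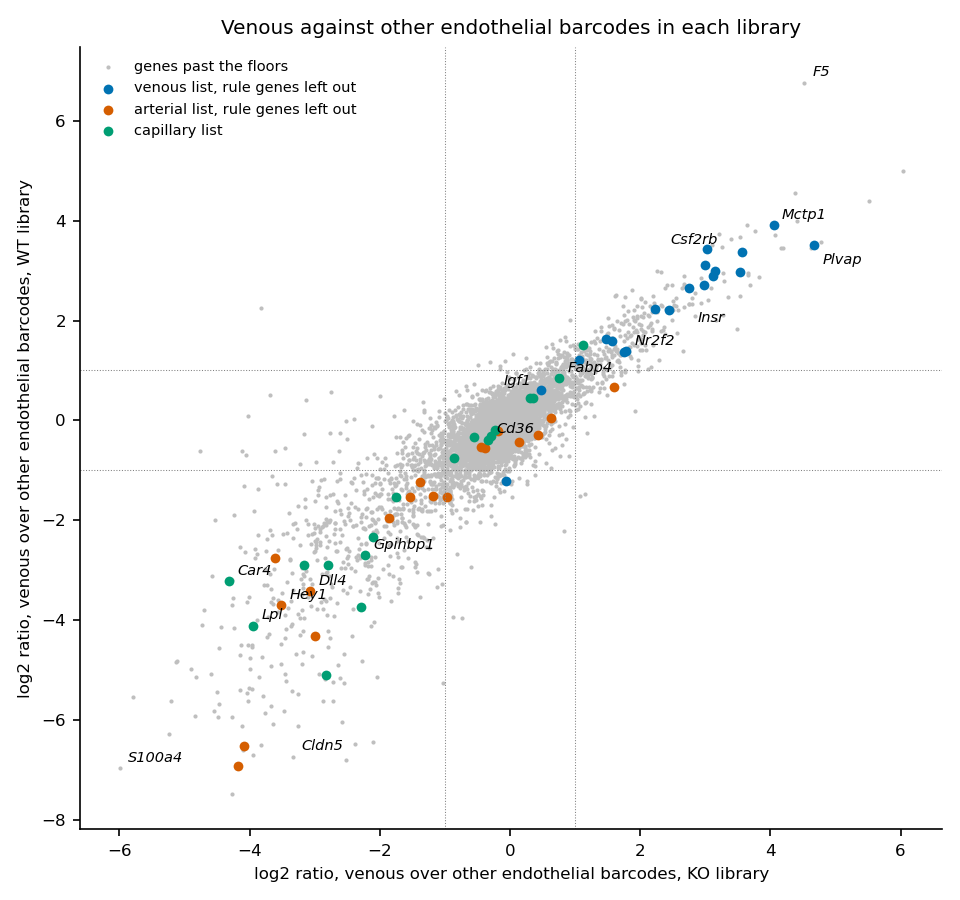
Each grey point is a gene past the floors, plotted by its log2 ratio of members over other endothelial barcodes in the library labelled KO (horizontal) and in the library labelled WT (vertical); coloured points are the venous, arterial and capillary lists and dotted lines mark 2-fold. The venous list lies in the upper right, where 17 of its 19 genes are 2-fold higher in both libraries, and 10 of 18 arterial and 9 of 18 capillary genes are 2-fold lower in both.

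The 15 genes furthest above other endothelial barcodes by the smaller of the library ratios were F5, Tll1, Cysltr1, Hrh1, Mctp1, Csf2rb2, Ctnnal1, Plvap, Plekha7, Rasa4, Nt5e, Lhx6, Csf2rb, Cxcl10 and Mir155hg. F5 encodes coagulation factor V and stood at 215 against 8.41 CPM in the library labelled KO and 452 against 3.16 CPM in the library labelled WT. Tll1, a metalloprotease that cleaves procollagens and the BMP antagonist chordin, stood at 427 against 8.32 CPM and 699 against 32.4 CPM. Arterial barcodes held no F5 UMI, and capillary barcodes had F5 at 2.06 and 0.225 CPM. Ctnnal1 (alpha-catulin) was at 300 against 25.1 CPM and 375 against 28.3 CPM, the junction protein gene Plekha7 at 125 against 5.87 CPM and 119 against 9.93 CPM, and the Ras GTPase-activating gene Rasa4 at 340 against 18.1 CPM and 296 against 26.2 CPM. Mir155hg, the host transcript of miR-155, stood at 233 against 26.2 CPM and 342 against 28.9 CPM.

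Receptors for interleukin-1, histamine and leukotrienes were high in the members. Of 23 measured cytokine and mediator receptor genes, 7 were 2-fold higher in both libraries and 1, the prostaglandin E2 receptor Ptger4, was 2-fold lower. Il1r1, the signalling receptor for interleukin-1, stood at 833 against 104 CPM in the library labelled KO and 865 against 99.3 CPM in the library labelled WT, log2 ratios of 2.99 (2.93 to 3.07) and 3.11 (2.99 to 3.25). The histamine H1 receptor gene Hrh1 stood at 137 against 5.52 CPM and 207 against 12.2 CPM, and the cysteinyl leukotriene receptor gene Cysltr1 at 94.7 against 3.62 CPM and 109 against 3.69 CPM. Both receptors are known to open gaps between venular endothelial cells. Csf2rb, the common beta chain for interleukin-3, interleukin-5 and GM-CSF, stood at 320 against 26.3 CPM and 178 against 16.4 CPM. Its near-identical neighbour Csf2rb2 was at 239 against 13.3 CPM and 123 against 8.39 CPM, and reads may be split between this pair in an unknown way. Il6st, the signalling chain of the interleukin-6 family, was at 837 against 178 CPM and 1044 against 222 CPM.

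Some secreted cytokines were high in the members, with their UMIs spread unevenly among them. Of 13 measured chemokine and colony-stimulating factor genes, 5 were 2-fold higher in both libraries and 2 were 2-fold lower. Csf3, the granulocyte colony-stimulating factor, stood at 195 CPM in members against 1.99 CPM in other endothelial barcodes of the library labelled KO and at 135 against 3.23 CPM in the library labelled WT. Il6 stood at 305 against 39.1 CPM and 245 against 47.3 CPM, and Cxcl10, a chemokine for T cells, at 220 against 22.9 CPM and 588 against 43.2 CPM. With barcodes that held 2 or more UMIs of other cell types' markers left out, which keeps 19 members in the library labelled KO, the log2 ratio of Cxcl10 there was -0.40. With every barcode thinned to 2000 UMIs, which left out 14 and 17 members, Il6 was found in 23.5% (18.7 to 28.9) of 281 members of the library labelled KO and in 23.03% (16.6 to 30.5) of 152 members of the library labelled WT, against 3.21% and 3.55% of other endothelial barcodes and 11.1% and 11.4% of stromal barcodes. Without thinning those shares of members were 43.1% and 29.6%. The 10% of members with most Il6 held 76.9% and 74.4% of its thinned UMIs, and for Csf3 that 10% held 90.1% in the library labelled KO and 100% in the library labelled WT. A single barcode held 38.3% of the Csf3 UMIs of members of the library labelled WT. Plvap, by comparison, was found in 90.4% and 84.9% of thinned members and in 3.03% and 2.44% of stromal barcodes, and its highest 10% held 24.7% and 25.9% of its UMIs.

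Genes of leukocyte adhesion outside the selectins were higher in part. Of 15 measured genes 4 were 2-fold higher in both libraries and 2 were 2-fold lower, against 4.06% and 8.75% of all genes compared. Vcam1, the ligand for leukocyte integrin alpha4-beta1, stood at 360 against 52.4 CPM in the library labelled KO and 522 against 82.7 CPM in the library labelled WT. Icam1, the ligand for the beta2 integrins, stood at 582 against 172 CPM and 389 against 149 CPM. Arterial barcodes had Icam1 at 513 and 318 CPM and Vcam1 at 172 and 218 CPM. Golm1 was at 103 against 19 CPM and 94.9 against 28 CPM. The junctional adhesion gene Jam3 was lower, at 15.6 against 53.9 CPM and 8.2 against 47.9 CPM.

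The granule and haemostasis genes differed gene by gene. Vwf, von Willebrand factor, stood at 430 against 47.8 CPM in the library labelled KO and 738 against 91.7 CPM in the library labelled WT. Myrip and Rab27a, which tether Weibel-Palade bodies to actin, stood at 141 against 41.1 CPM and 105 against 22.1 CPM in the library labelled KO, and at 241 against 79.3 CPM and 148 against 51.2 CPM in the library labelled WT. These 3 were the only ones of 14 measured Weibel-Palade genes that were 2-fold higher in both libraries, and Myrip was higher still in arterial barcodes, at 237 and 280 CPM. Of 18 coagulation and fibrinolysis genes, 5 were 2-fold higher in both libraries and 6 were 2-fold lower. Nt5e, the ecto-enzyme that makes adenosine from AMP, stood at 375 against 14.2 CPM and 158 against 13.6 CPM. Ptgs1 (cyclooxygenase-1) stood at 175 against 19.6 CPM and 193 against 30.1 CPM, and Procr, the protein C receptor, at 111 against 32.5 CPM and 155 against 40.1 CPM. F8, coagulation factor VIII, stood at 16.6 against 2.93 CPM and 70.3 against 7.31 CPM. Tissue factor, F3, was at 2.83 and 1.17 CPM in members, against 30.9 and 27.5 CPM in other endothelial barcodes and 5.57 and 2.38 CPM in those held to the same exclusions.

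Among barrier genes Plvap was high and Cldn5 low in the members. Of 14 measured genes 3 were 2-fold higher in both libraries and 1 was 2-fold lower, against 4.06% and 8.75% of all genes compared. Plvap stood at 1714 CPM in members against 66.4 CPM in other endothelial barcodes of the library labelled KO and at 1443 against 126 CPM in the library labelled WT, log2 ratios of 4.67 (4.63 to 4.75) and 3.51 (3.41 to 3.63). Cldn5, the main endothelial tight junction claudin, was at 26.5 against 277 CPM and 1.17 against 231 CPM. Members of the library labelled WT held a single Cldn5 UMI, and after thinning 0 of 152 had 1, which allows a share with a Cldn5 UMI at that depth of up to 1.97%, a limit on detection and not on expression. Thinned other endothelial barcodes had a Cldn5 UMI in 31.6% in the library labelled KO and 26.9% in the library labelled WT. Cldn5 was highest in arterial barcodes, at 653 and 803 CPM. The endocytic gene Ehd4 stood at 1179 against 205 CPM and 1188 against 240 CPM, and the vascular phosphatase gene Ptprb, which acts on Tie2 and VE-cadherin, at 2651 against 1109 CPM and 2969 against 1330 CPM.

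Insulin and IGF genes were examined because the study concerns IGF-I. Of 13 measured genes of this list 1 was 2-fold higher in both libraries and 5 were 2-fold lower, against 4.06% and 8.75% of all genes compared. The higher one was Insr, the insulin receptor, at 754 against 111 CPM in the library labelled KO and 587 against 115 CPM in the library labelled WT. Its log2 ratios were 2.76 (2.70 to 2.84) and 2.34 (2.20 to 2.50). Capillary barcodes had Insr at 71.7 and 82.8 CPM and arterial barcodes at 102 and 69.6 CPM. The IGF-I receptor gene Igf1r did not follow it, at 246 against 324 CPM and 315 against 300 CPM. The adaptor genes Irs1 and Irs2 were low, at 3.89 and 9.9 CPM in members of the library labelled KO and 3.51 and 10.5 CPM in those of the library labelled WT. In barcodes held to the same exclusions they were at 10.4 and 22.5 CPM in the library labelled KO and 7.36 and 19.2 CPM in the library labelled WT.

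Part of the arterial and capillary genes were lower in the members than in other endothelial barcodes. The rule limited arterial genes in members but not in that reference. Of 18 arterial genes 10 were 2-fold lower in both libraries and none was 2-fold higher in both. Eln, elastin, was not among them, at 490 against 160 CPM in the library labelled KO and 378 against 236 CPM in the library labelled WT. The Notch ligand gene Dll4 was at 12.4 against 111 CPM in the library labelled KO and 9.37 against 110 CPM in the library labelled WT, and its target Hey1 at 4.6 against 63.2 CPM and 4.69 against 72.8 CPM. The semaphorin gene Sema3g was at 7.78 against 147 CPM and 1.17 against 200 CPM. Summed, the arterial list was not lower in members than in capillary barcodes, which held at most 1 UMI of the rule's arterial genes. It stood at 2165 against 1744 CPM in the library labelled KO and 2118 against 1640 CPM in the library labelled WT. Of 17 measured Notch and ephrin genes 7 were 2-fold lower in both libraries and none was 2-fold higher. Of 18 capillary genes 9 were 2-fold lower and 1 was 2-fold higher. Lpl, lipoprotein lipase, stood at 91.6 against 1426 CPM and 37.5 against 664 CPM, Gpihbp1, which anchors it to the capillary wall, at 145 against 685 CPM and 73.8 against 487 CPM, and Car4 (carbonic anhydrase 4) at 9.9 against 215 CPM and 11.7 against 117 CPM. Btnl9 was at 5.66 against 46.1 CPM in the library labelled KO, and members of the library labelled WT held none, a limit of 3.51 CPM, against 33.2 CPM. In contrast the fatty acid binding protein gene Fabp4 was at 9603 against 5690 CPM and 7977 against 4413 CPM, and the fatty acid transporter gene Cd36 at 1863 against 2355 CPM and 1290 against 1684 CPM, both with ratios under 2-fold.

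**Figure D2:**
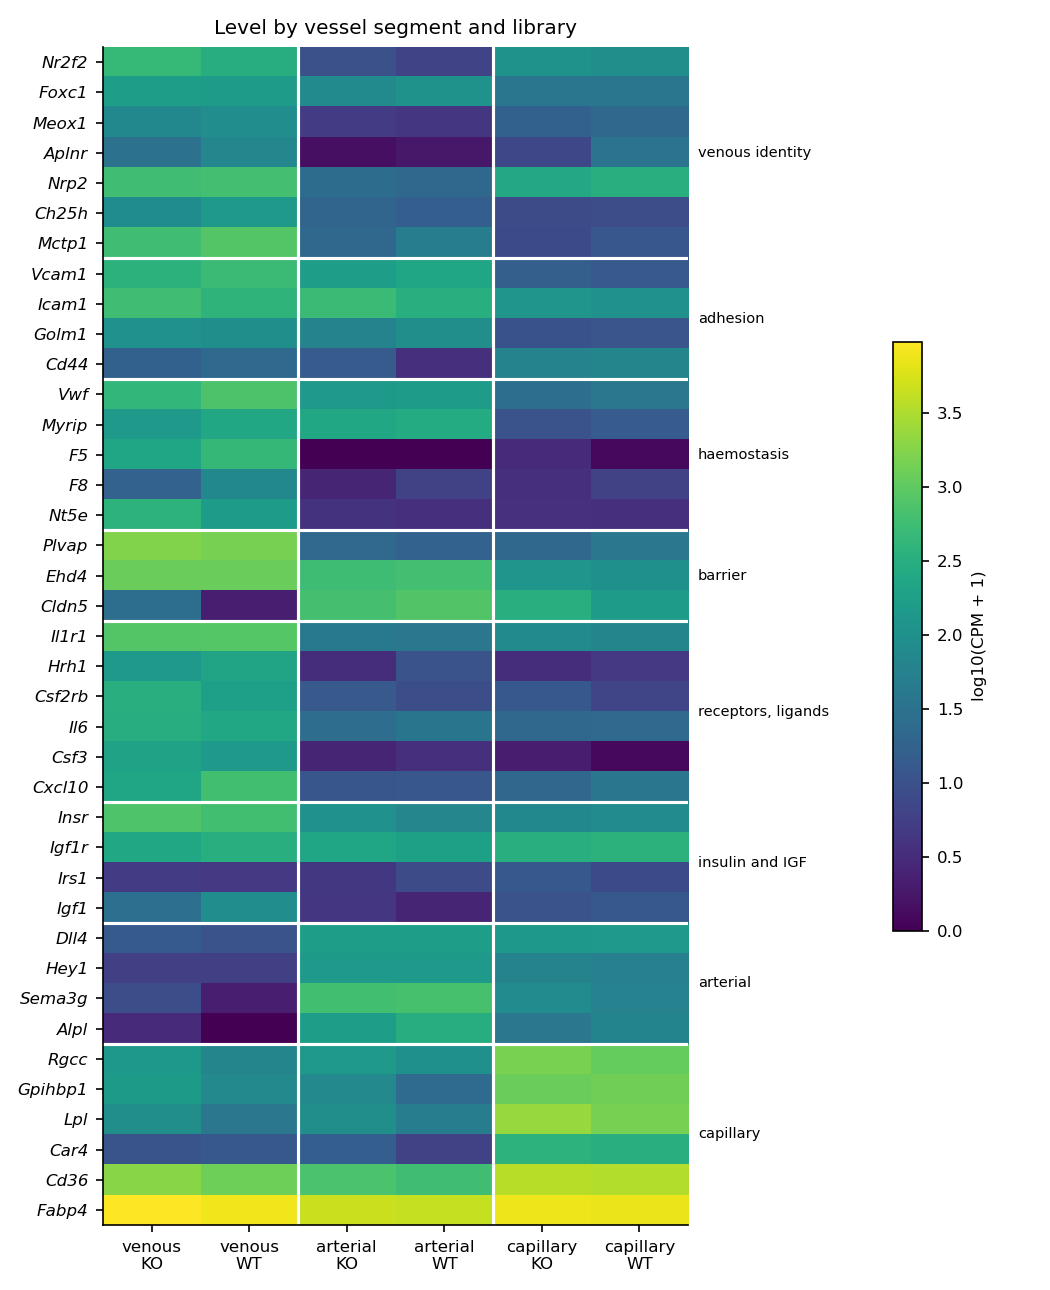
Colour gives log10 of CPM plus 1 for genes grouped by role (rows) in venous, arterial and capillary barcodes of the libraries labelled KO and WT (columns; arterial and capillary barcodes hold 3 or more UMIs over 2 or more of Bmx, Cytl1, Gja5 or of Rgcc, Gpihbp1, Car4, Lpl). Plvap, Il1r1, Insr and F5 are bright in the venous columns, Icam1 and Myrip also in the arterial ones, and Fabp4 is the brightest row in every column.

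Of the 10 genes furthest below other endothelial barcodes, S100a4 and Alpl also stood far below barcodes held to the same exclusions, to which the limit on arterial genes was not applied. S100a4, a calcium-binding protein gene, had 1 UMI in members of the library labelled KO and none in those of the library labelled WT, a limit of 3.51 CPM, against 67.1 and 115 CPM in barcodes held to the same exclusions. Alpl (alkaline phosphatase) was at 2.12 CPM and at 0 UMIs in members, against 68.9 and 163 CPM there and 170 and 303 CPM in arterial barcodes. The other 8 were Myoc, Dock2, Arhgap15, Cxcl14, Smoc2, Ifi205, Apod and Lum, most of them known from stromal cells or leukocytes. Apod, for example, was at 25.8 and 37.5 CPM in members, against 504 and 684 CPM in other endothelial barcodes and 73.4 and 112 CPM in those held to the same exclusions. With barcodes that held other cell types' markers left out, the log2 ratio of Apod in the library labelled KO was 0.010. Lum was at 4.24 and 2.34 CPM, against 92 and 139 CPM and then 10.7 and 8.26 CPM. Their log2 ratios against that second set were between -3.69 and -0.39.

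Vessel wall and tone genes were mixed. The proteoglycan gene Bgn stood at 289 against 91 CPM in the library labelled KO and 374 against 160 CPM in the library labelled WT, and arterial barcodes had it at 273 and 368 CPM. Fibronectin, Fn1, was at 5.3 against 166 CPM and 16.4 against 296 CPM, and remained far below barcodes held to the same exclusions, at 154 and 288 CPM. The endothelin B receptor gene Ednrb was at 45.6 against 391 CPM and 19.9 against 189 CPM, and Bmp6 at 55.1 against 359 CPM and 69.1 against 292 CPM. The heat shock gene Hspa1a, which dissociation induces, was at 125 against 527 CPM and 65.6 against 444 CPM, and 5 of 20 genes of the dissociation list were 2-fold lower in both libraries.

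The members were not uniform, and some genes differed with Sele in both libraries. Members with a Sele UMI numbered 163 in the library labelled KO and 88 in the library labelled WT, with medians of 9092 and 4680.5 UMIs, and members without it 132 and 81, with medians of 7961.5 and 4015 UMIs. The split was chosen with the data in view. Of 2955 genes past the floors, 9 (0.305%) were 2-fold higher in members with Sele in both libraries and 4 (0.135%) were 2-fold lower. Il6 was at 430 CPM in members with Sele against 117 CPM in members without it in the library labelled KO, and at 357 against 99.5 CPM in the library labelled WT. The interferon-induced GTPase gene Gbp2 was at 146 against 55 CPM and 311 against 91.5 CPM, the NOD-signalling kinase gene Ripk2 at 84.6 against 34.6 CPM and 120 against 37.7 CPM, and the growth factor gene Hbegf at 378 against 185 CPM and 268 against 75.3 CPM. The other higher genes were Ehd3, Tmem51, Upp1, Noct and Mid1.

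Members without Sele had more Edn1 and Eln. Edn1, the vasoconstrictor endothelin-1, was at 59.9 CPM in members with Sele against 172 CPM in members without it in the library labelled KO, and at 41.5 against 183 CPM in the library labelled WT. Eln, elastin, was at 318 against 750 CPM and 208 against 600 CPM. The other lower genes were Dipk2b and Ncald. Arterial barcodes had Edn1 at 490 and 573 CPM and Eln at 968 and 1092 CPM.

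**Figure D3:**
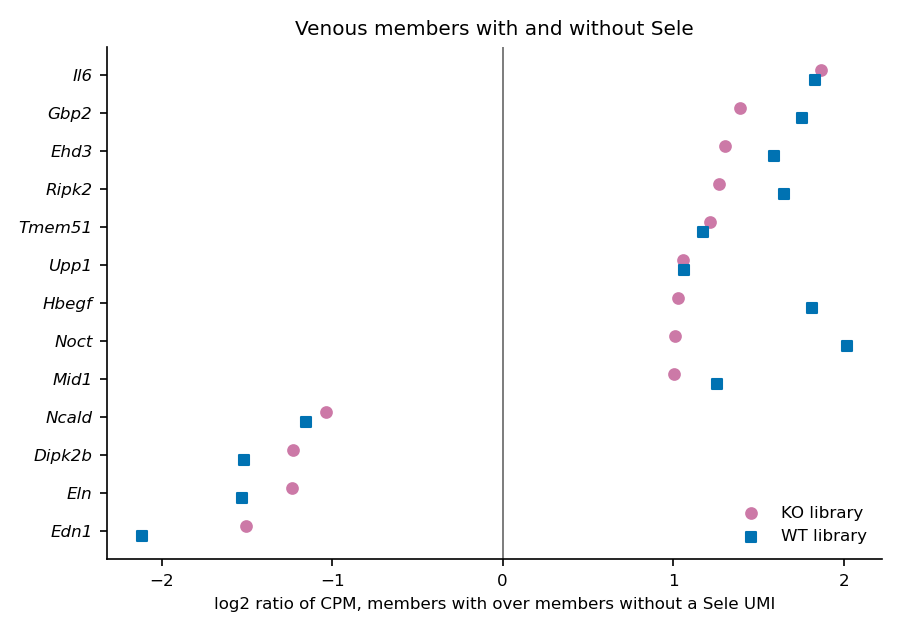
Points give the log2 ratio of CPM in members with a Sele UMI over members without one, circles for the library labelled KO and squares for the library labelled WT, for the 13 genes at least 2-fold apart in both. Il6 leads the 9 higher genes and Edn1 the 4 lower ones, with both libraries on the same side of 0.

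Ackr1 marked a smaller difference. With an Ackr1 UMI there were 146 members in the library labelled KO and 85 in the library labelled WT, with medians of 10068 and 4328 UMIs. Without it there were 149 and 84, with medians of 7564 and 4671.5 UMIs. Of 2952 genes 1 (0.0339%) was 2-fold higher in members with Ackr1 in both libraries, the endocytic gene Ehd3, at 64.3 against 26.6 CPM and 93.9 against 36.5 CPM. The 3 genes (0.102%) that were 2-fold lower were Gpihbp1, Lnx1 and Trpm3. The capillary gene Gpihbp1 was at 65.6 CPM in members with Ackr1 against 246 CPM in members without it in the library labelled KO, and at 40.9 against 105 CPM in the library labelled WT. Mctp1 followed Ackr1 under the 2-fold mark, at 745 against 384 CPM and 1078 against 571 CPM.

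Members made up 2.61% (2.33 to 2.93) of 11283 endothelial barcodes in the library labelled KO and 4.15% (3.56 to 4.81) of 4074 in the library labelled WT. Barcodes with under 2000 UMIs were left out of the thinning, so the thinned shares are not of all endothelial barcodes. After thinning to 2000 UMIs, 7765 and 2593 barcodes still held Pecam1 or Cdh5 UMIs. With the rule applied to these, the shares were 3.07% (2.69 to 3.47) and 4.97% (4.17 to 5.88). The share in the library labelled KO was the smaller at equal depth as well, and also with doublet calls left out, at 2.64% and 4.12%.

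Between the libraries, 150 of 6531 genes (2.3%) were at least 2-fold higher in members of the library labelled KO and 210 (3.22%) at least 2-fold lower, where 20 CPM in 1 library and 50 UMIs over both were required. In the other endothelial barcodes 45 of 7274 genes (0.619%) were higher and 137 (1.88%) lower. Those barcodes held 56388220 and 12995079 UMIs, against 2828712 and 853588 in members. Counting error is therefore larger in members, and the shares of genes in these sets cannot be compared directly. For 14 of the 150 higher and 37 of the 210 lower genes in members, 1 barcode held over 20% of the UMIs. The medians over all genes were 0.01 and 0.02. At 2000 UMIs per barcode the counts in members were 79 higher and 72 lower, and with barcodes that held 2 or more UMIs of other cell types' markers left out they were 65 and 90. Both comparisons use the same 2 libraries, and their values are given side by side.

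Most genes of the venous list lay under 2-fold between the libraries, as did most of all genes compared, of which 2.3% were higher and 3.22% lower. Of 20 measured genes of the venous list none was 2-fold higher in the library labelled KO and 1, Aplnr, was 2-fold lower, at 30 CPM in the library labelled KO against 67.9 CPM in the library labelled WT. The median log2 ratio of the list was -0.21. Selp, Il1r1, Nrp2 and Ehd4 differed by 0.10 or less on the log2 scale. Vwf was at 430 CPM in the library labelled KO against 738 CPM in the library labelled WT, a log2 ratio of -0.78 (-0.92 to -0.64), beside -0.92 in other endothelial barcodes. None of 15 measured adhesion genes and none of 21 receptor genes was 2-fold apart. These list counts were near the shares over all genes.

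Haemostasis genes differed in both directions. F8 was at 16.6 CPM in members of the library labelled KO against 70.3 CPM in those of the library labelled WT, a log2 ratio of -2.02 (-2.66 to -1.51), and F5 at 215 against 452 CPM, a log2 ratio of -1.07 (-1.26 to -0.89). Nt5e was at 375 against 158 CPM, a log2 ratio of 1.24 (0.99 to 1.52), beside 0.06 in other endothelial barcodes at 14.2 against 13.6 CPM. Of 15 measured genes of the coagulation list 1 was 2-fold higher and 3 were 2-fold lower, against 2.3% and 3.22% of all genes compared. The highest barcode held 9.39% of the F5 UMIs in the library labelled KO and 15.03% in the library labelled WT. Among thinned members F5 was found in 15.7% (11.6 to 20.4) and 19.1% (13.2 to 26.2) in the same order of libraries, and these intervals overlap. The variance of its UMIs per thinned member was 5.79 and 8.24 times the mean. F5 UMIs were thus spread unevenly over the members, and the interval of the F5 ratio does not cover that spread.

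Interferon-stimulated genes and genes of antigen presentation were lower in members of the library labelled KO. Of 22 measured interferon genes 19 had ratios below 0 and 7 were 2-fold lower, with none 2-fold higher. Of all genes compared 3.22% were 2-fold lower. The median log2 ratio of the interferon genes was -0.68 in members and -0.71 in other endothelial barcodes. Ifit1, which binds foreign RNA, was at 41.4 CPM in the library labelled KO against 142 CPM in the library labelled WT, a log2 ratio of -1.75 (-2.16 to -1.40) beside -1.17 in other endothelial barcodes. The guanylate-binding protein gene Gbp5 was at 61.9 against 177 CPM, and the antiviral deaminase gene Apobec3 at 39.2 against 144 CPM, a log2 ratio of -1.85 beside -1.78. Cxcl10 was at 220 against 588 CPM, a log2 ratio of -1.42 (-1.59 to -1.25) beside -0.88. Among thinned members Cxcl10 was found in 12.1% (8.53 to 16.5) and 22.4% (16.0 to 29.8) in the same order of libraries. The variance of its UMIs per thinned member was 6.79 and 7.33 times the mean, a spread that the interval of its ratio does not cover.

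Of 16 measured genes of antigen presentation 15 had ratios below 0 and 5 were 2-fold lower, against 3.22% of all genes compared. Their median was -0.77 in members and -0.54 in other endothelial barcodes. H2-Q7, a non-classical class I gene, was at 24.7 CPM in members of the library labelled KO against 82 CPM in those of the library labelled WT, and H2-Q6 at 23.3 against 71.5 CPM. These are near-identical genes whose reads may be split between them. Cd74, the invariant chain of class II molecules, was at 17 against 136 CPM, a log2 ratio of -2.93 (-3.52 to -2.50), and the class II gene H2-Ab1 at 9.19 against 36.3 CPM. Among thinned members Cd74 was found in 4.27% (2.23 to 7.34) in the library labelled KO and 15.8% (10.4 to 22.6) in the library labelled WT, against 4.25% and 4.92% of other endothelial and 0.672% and 1.22% of stromal barcodes, and without thinning in 11.5% and 21.9% of members. In barcodes held to the same exclusions Cd74 was at 13.3 and 24.3 CPM, so that it stood above them in members of the library labelled WT, at a log2 ratio of 2.43, and near them in the library labelled KO, at 0.33. Cd74 is abundant in leukocytes, and barcodes without Pecam1 and Cdh5 UMIs had it at 577 and 1240 CPM. The summed immune markers of members were 40.3 and 29.3 CPM, and among them Lyz2 was at 9.9 and 22.3 CPM and S100a9 at 10.3 and 0 CPM. The part of leukocyte transcripts in the Cd74 difference was not tested.

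**Figure D4:**
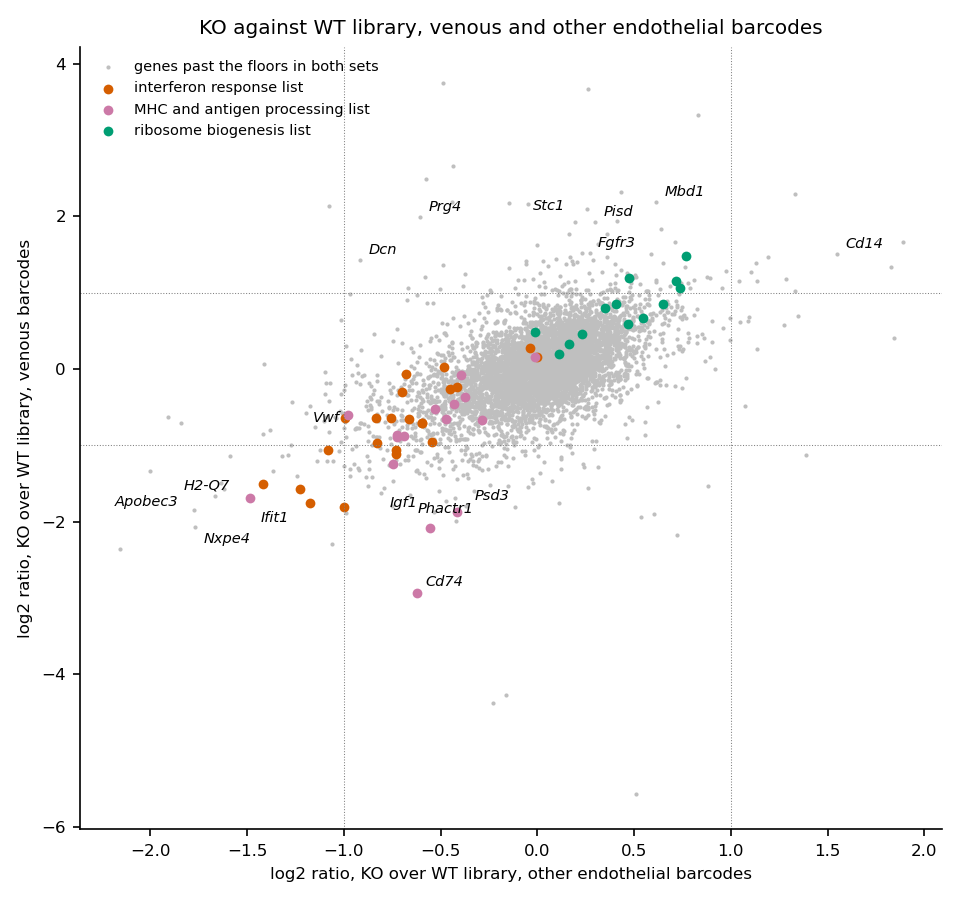
Each point is a gene past the floors in both sets, plotted by its log2 ratio between the libraries (labelled KO over labelled WT) in other endothelial barcodes (horizontal) and in venous members (vertical), with 3 lists coloured and dotted lines at 2-fold. Interferon and antigen presentation genes lie mostly in the lower left with medians of -0.68 and -0.77 in members, and ribosome biogenesis genes in the upper right with a median of 0.80.

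Igf1, which encodes IGF-I, was among the 12 lowest ratios. It was at 27.9 CPM (79 UMIs) in members of the library labelled KO against 87.9 CPM (75 UMIs) in those of the library labelled WT, a log2 ratio of -1.62 (-2.13 to -1.18), beside 32.7 against 58 CPM in other endothelial barcodes, where the ratio was -0.81. Those other barcodes also held stromal markers, summed to 2152 CPM in the library labelled KO and 4567 CPM in the library labelled WT. In barcodes held to the same exclusions Igf1 was at 6.32 against 14.7 CPM. Arterial barcodes had Igf1 at 3.24 CPM in the library labelled KO and 1.6 CPM in the library labelled WT, capillary barcodes at 9.42 and 11.7 CPM, and stromal barcodes at 403 and 397 CPM. Among thinned members Igf1 was found in 4.98% (2.75 to 8.22) in the library labelled KO and 16.4% (10.9 to 23.3) in the library labelled WT, against 2.15% and 4.88% of other endothelial and 34.3% and 38.0% of stromal barcodes, and without thinning in 16.3% and 23.7% of members. The highest barcode held 6.3% and 9.3% of the UMIs. The part of free RNA from stromal cells in these counts was not tested. Of 3 measured stromal markers, 2 had ratios above 0 in members and 1 had a ratio below 0. The stromal marker Dcn was at 128 against 46.9 CPM, with 37.6% of its UMIs in the library labelled KO in 1 barcode. With barcodes that held other cell types' markers left out, its log2 ratio was -2.90. Igf1r was at 246 against 315 CPM, a log2 ratio of -0.36 (-0.56 to -0.15), and Insr at 754 against 587 CPM, a log2 ratio of 0.36 (0.22 to 0.51).

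Measured genes of ribosome assembly had higher summed levels in members of the library labelled KO. Of 20 ribosome biogenesis genes 15 were measured. All 15 had ratios above 0, and 4 were 2-fold higher, against 2.3% of all genes compared. The median log2 ratio over all genes was 0.01. Members of the library labelled KO held more UMIs, so low genes could pass the floors of any list through their level there. How far the counts of ratios above 0 depend on this was not tested. Over the 13 genes measured in both sets the median was 0.80 in members and 0.47 in other endothelial barcodes. Heatr1, a factor of ribosomal RNA transcription and processing, was at 37.8 CPM in members of the library labelled KO against 12.9 CPM in those of the library labelled WT, and Gar1, a subunit of box H/ACA particles, at 35 against 15.2 CPM. Among thinned members Heatr1 was found in 6.76% (4.12 to 10.4) in the library labelled KO and 4.61% (1.87 to 9.26) in the library labelled WT. Gar1 was found in 5.34% (3.02 to 8.65) and 1.32% (0.160 to 4.67), and the ribosome assembly gene Fbl in 6.41% and 7.89%. All 14 measured genes of the unfolded protein and amino acid stress list had ratios above 0, none 2-fold, with a median of 0.53 in members and 0.25 in other endothelial barcodes over the 13 shared. Among these the transcription factor gene Atf4 was at 292 against 193 CPM. Of 20 dissociation and immediate early genes 19 had ratios above 0 and 1 was 2-fold higher, with medians of 0.50 and 0.26, and Hspa1a was at 125 against 65.6 CPM. The dissociation genes moved with the other lists, and their part in the result was not tested.

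**Figure D5:**
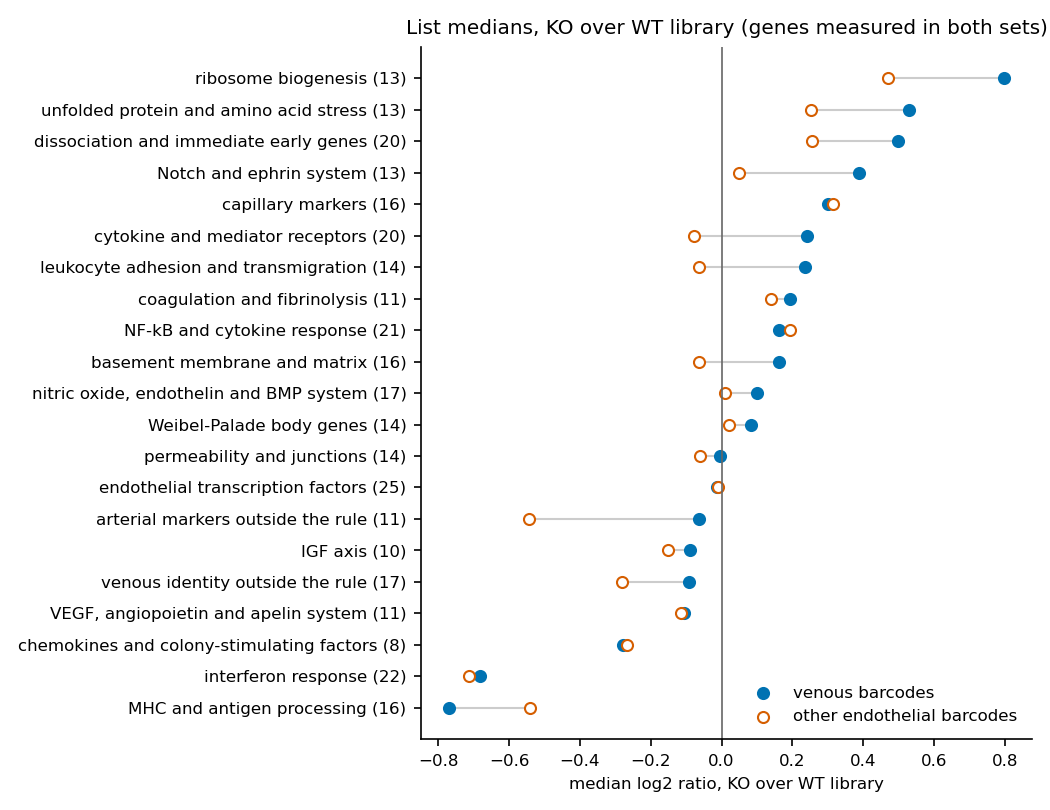
For each gene list shown, which leaves out markers of other cell types and lists with under 5 genes measured in both sets, the filled point is the median log2 ratio between the libraries (labelled KO over labelled WT) in venous members and the open point that in other endothelial barcodes, with the number of genes measured in both sets in brackets. Of the lists shown, ribosome biogenesis has medians of 0.80 in members and 0.47 in other endothelial barcodes, antigen presentation -0.77 and -0.54, and the interferon list -0.68 and -0.71.

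The 12 genes with the highest ratios were Mbd1, Prg4, Olr1, Pisd, Stc1, Iars, Fgfr3, Slc7a1, Cd14, Mid1ip1, Tnfrsf12a and Tars. Olr1, the receptor for oxidised low-density lipoprotein, was at 81.7 CPM in members of the library labelled KO against 19.9 CPM in those of the library labelled WT, and at 3.94 against 6.46 CPM in other endothelial barcodes. A single barcode held 18.6% and 29.4% of its UMIs, and with barcodes that held other cell types' markers left out the log2 ratio of Olr1 was -0.29. Stc1, the secreted hormone stanniocalcin-1, was at 229 against 59.7 CPM, a log2 ratio of 1.92 (1.53 to 2.38) beside 0.19 in other endothelial barcodes. Genes that serve amino acid use included the transfer RNA synthetases Iars, at 50.2 against 14.1 CPM, and Tars, at 50.2 against 18.7 CPM, and the cationic amino acid transporter Slc7a1, at 95.4 against 32.8 CPM. Cd14, the co-receptor for lipopolysaccharide, was at 78.1 against 26.9 CPM, beside 107 against 35.9 CPM in other endothelial barcodes, and Tnfrsf12a, the TWEAK receptor gene, at 118 against 44.5 CPM, a log2 ratio of 1.38 beside 1.13. Fgfr3 was at 65.8 against 22.3 CPM and the methyl-CpG-binding protein gene Mbd1 at 67.5 against 14.1 CPM, or 191 UMIs against 12 UMIs. Prg4, the lubricin gene of joint and fascia fibroblasts, was at 147 against 36.3 CPM.

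The 12 lowest ratios beside F8, Igf1, Apobec3, Ifit1, H2-Q7 and H2-Q6 were those of Nxpe4, Tgtp2, Psd3, Rnf220, Phactr1 and Eml6. Nxpe4 was at 30 CPM in members of the library labelled KO against 129 CPM in those of the library labelled WT, a log2 ratio of -2.06 (-2.53 to -1.68) beside -1.77 in other endothelial barcodes. The interferon-induced GTPase gene Tgtp2 was at 23.3 against 89 CPM. Psd3, which activates the GTPase ARF6, was at 29 against 103 CPM, a log2 ratio of -1.80 beside -0.37, and the ubiquitin ligase gene Rnf220 at 43.8 against 144 CPM, a log2 ratio of -1.69 beside -0.43. Phactr1, a phosphatase and actin regulator gene, was at 24 against 77.3 CPM and Eml6 at 26.5 against 82 CPM.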

How the data were processed

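Counts are raw UMI counts per gene and barcode, made by the authors with Cell Ranger and deposited without normalisation. The submitters' processing notes name Cell Ranger 9.0.0 and build mm10, but per the file headers version 9.0.0 made the matrix labelled KO and version 8.0.0 the one labelled WT. Libraries were 10x GEM-X 3′ per the labels. Barcodes were taken by the filter and rule of the opening. Counts were summed per set and library, scaled to CPM, and compared as log2 ratios after adding 1 CPM, for genes at 20 CPM in 1 set and 50 UMIs over both. With 1 library per genotype there is no test. Intervals (95%, exact Poisson, binomial or conditional binomial) and the 3-UMI limit for a count of 0 cover counting error only.

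Members and gene lists were chosen with earlier results of these data known. Named genes were the rule's genes, up to 4 per list furthest from 0, the 15 highest and 10 lowest against other endothelial barcodes, and the 12 highest and 12 lowest between libraries. Mitochondrial, ribosomal protein, haemoglobin and predicted genes were left out of these rankings, as were genes with over 20% of UMIs in 1 barcode of the set and library where the gene is higher, or over 5 times higher in that library's barcodes without Pecam1 and Cdh5 UMIs. Genes of the Sele and Ackr1 splits and others outside this rule, such as Cd36, Fabp4, Igf1r and Il6, were chosen after their values were seen. Scrublet in scanpy 1.11.5 called doublets in 3.405% of barcodes of the library labelled KO and 1.367% of the library labelled WT, and called barcodes were kept. Scripts used Python 3.11.15, numpy 2.4.6, scipy 1.17.1 and pandas 2.3.3 and were tested on simulated data. Alternatives covered depth, cell filter, doublets, other cell types, reference set, weighting, scaling, pseudocount and floors. Promoters came from RefSeq, GRCm38.p6, with none used here for Csf3, Vcam1, Vwf and Plvap.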

Additional observations from a re-analysis of the deposited data

Results flagged for a closer look

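Some genes of stroma moved in opposite directions between the libraries in members and in other endothelial barcodes, and the difference was not tested. Dcn, a proteoglycan of fibroblasts, had a log2 ratio between the libraries (labelled KO over labelled WT) of 1.43 in members and -0.91 in other endothelial barcodes, with 37.6% of its UMIs in members of the library labelled KO in 1 barcode. Fmod had 0.99 in members and -0.97 in other endothelial barcodes, and Prg4 had 1.99 and -0.60. Dcn stood at 1433 CPM in other endothelial barcodes of the library labelled KO and 2701 CPM in those of the library labelled WT. In barcodes held to the same exclusions it was at 277 and 388 CPM. With barcodes that held other cell types' markers left out, its ratio in members was -2.90.

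Some genes stood on opposite sides of 0 in the libraries when members were set against other endothelial barcodes, and this was not tested either. The log2 ratios were 1.08 for Prg4, 0.91 for Pisd, 0.65 for Mid1ip1 and -0.66 for Eml6 in the library labelled KO. In the library labelled WT they were -1.52 for Prg4, -0.71 for Pisd, -0.59 for Mid1ip1 and 0.60 for Eml6.

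Barcodes without Pecam1 and Cdh5 UMIs also met the marker part of the rule, in 0.769% (49 of 6368) of the library labelled KO and 0.0707% (4 of 5658) of the library labelled WT. In the library labelled KO these 49 barcodes had Lrg1 in 49, Selp in 48 and Sele in none. The neutrophil genes S100a8 and S100a9 were found in 45 and 46 of them and Plvap in 2.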

How the results depend on the processing

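No paired analysis was possible because each genotype has 1 library, and no replicate could be left out. Of the genes 2-fold apart from other endothelial barcodes, the higher ones numbered 279 and were 159 with a floor of 100 CPM, and between 220 and 351 under the other settings. The lower ones numbered 602 and were 369 against barcodes held to the same exclusions, a set chosen after seeing the data, 1559 without a floor and 143 with a floor of 100 CPM. Between libraries, the 150 higher genes were 79 at 2000 UMIs per barcode, 65 with other-type barcodes left out, 238 by the mean CPM per barcode, 97 with 5 CPM added and 24 with a floor of 100 CPM. The 210 lower genes were 72 at 2000 UMIs, 90 with other-type barcodes left out and 49 with a floor of 100 CPM. The members' share was 3.07% at 2000 UMIs and 1.12% with other-type barcodes left out in the library labelled KO, and 4.97% and 2.81% in the library labelled WT. That last setting keeps 19 and 38 members, and it removes 276 members and 9316 other endothelial barcodes in the library labelled KO and 131 and 2591 in the library labelled WT. Under it the log2 ratio to other endothelial barcodes turned to 0.010 for Apod, 2.05 for Cd74, -0.40 for Cxcl10 and 1.19 for H2-Ab1 in the library labelled KO. In the library labelled WT it turned to 3.11 for Cd74, 0.45 for Cxcl14, 3.78 for H2-Ab1 and 0.77 for Prg4. Between libraries it turned to -2.90 for Cldn5 and for Dcn and to -0.29 for Olr1. Against barcodes held to the same exclusions Cd74 turned to 0.33 and 2.43 and H2-Ab1 to 0.53 and 2.12 in the libraries labelled KO and WT. At 2000 UMIs Ifi205 turned to 0.30 in the library labelled KO and H2-Ab1 to 0.12 in the library labelled WT. Where no value above shows the cause, the cause was not tested. The shallower library labelled WT limits precision, with 1 UMI worth 1.17 CPM there.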
